A study of Mus musculus with 6 samples.

Results

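The genes described here encode the chains of collagens and laminins, the structural proteins of the extracellular matrix. They were chosen by symbol alone, as every gene named like a collagen chain (Col, a number, a and a number) or a laminin chain (Lama, Lamb or Lamc and a number), which gave 54 of the 26147 genes in the deposited table. Their transcripts were counted in retinas isolated from C57BL/6J mouse embryos at embryonic day 13.5, with 3 libraries from wild types and 3 from conditional knockouts (Tbx3 cKO) of Tbx3, a T-box factor active in the dorsal eye cup. The cKO embryos were Dkk3-Cre+;Tbx3∆Fl/∆Fl, and the siblings taken as wild type were Dkk3-Cre negative and Tbx3Fl/+, so they carried 1 floxed allele and no Cre, and what Cre itself does and what the deletion does cannot be told apart. Dkk3-Cre acts in progenitors of the neural retina, so cells of the lens, vessels and mesenchyme around the eye are not its main target. The labels do not say how many retinas or embryos went into a library, and p-values here measure only the spread between these samples, which may be technical.

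Collagen chains assemble in threes into a triple helix, and laminins are cross-shaped trimers of 1 alpha, 1 beta and 1 gamma chain. Laminins and collagen IV form the sheet of basement membranes, which in the eye include the inner limiting membrane of the retina, the lens capsule and the sheaths of vessels. Fibrillar collagens build the ropes of connective tissue, and collagen II with its partners V, XI and IX forms the fine fibrils of the vitreous. Lens and ciliary epithelium are known as sources of much of the matrix that coats the inner retina. By these roles the 54 genes fall into 20 basement membrane chains, 11 fibrillar collagens and 23 other collagens. A normalized read count of 10 or more, met in 3 or more libraries, was found for 48 of them (19, 11 and 18), and those were tested. Lamb3, Col6a4, Col6a6, Col10a1, Col19a1 and Col28a1 did not reach it.

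Depth, estimated from the deposited values, was 21482152 to 27174646 reads per library. The normalized read count of Tbx3 was 1998, 2558 and 2577 in the wild types, against 40.3, 47.8 and 58.9 in the knockouts, so each library matched its label. Markers of neural retina progenitors were abundant in every library (10 of 10 genes tested, none at 0, summed values of 127393 to 140487 in wild type against 57312 to 119102 in cKO). Tissue next to the retina was present in unequal amounts. The 10 lens markers, none at 0, summed to 643, 168588 and 61316 in wild type and to 729, 115501 and 1058 in cKO, which put wild type 2, wild type 3 and Tbx3 cKO 2 far above the other three. The 12 markers of mural cells and periocular mesenchyme, none at 0, summed to 497, 4532 and 1511 in wild type and to 3331, 2023 and 8597 in cKO. Wild type 1 had the least and Tbx3 cKO 3 the most. Pigment epithelium markers (9 of 10 in the table, none at 0) summed to 945 to 5820 in wild type against 5795 to 27700 in cKO. Of 10 endothelial markers, none at 0, 9 were higher in mean log2 value in cKO, with a median log2 fold change of 1.40 (1.84 for Pecam1 and 1.74 for Tie1). Their sum was 4152 to 4710 in wild type and 3760 to 6037 in cKO, most of it Kdr in wild type, which had a log2 fold change of -0.78. Marker sums of 4 further lists did not overlap between the groups, as the values of Col9a1 did not. Macrophage markers (8 genes, none at 0) summed to 711 to 1277 in wild type and 2574 to 5309 in cKO, red blood cell markers (10 genes, none at 0) to 64177 to 97367 and 195120 to 634439, and optic stalk and astrocyte markers (6 genes, S100b at 0 in 2 libraries) to 1652 to 2141 and 5344 to 6439. Of the optic stalk and astrocyte markers, Pax2, Vax1 and Vax2 were higher in every cKO library, and Vax2 was the largest part of the sum. Gfap (20.0 ± 16.1 against 20.2 ± 8.48), Aldh1l1 (79.8 ± 30.4 against 114 ± 36.9) and the scarce S100b overlapped between groups. Markers of retinal ganglion cells (10 genes) summed to 27015 to 98032 in wild type and 1717 to 21570 in cKO, with Pou4f2 at 0 in Tbx3 cKO 3. The part of any of these cells in the differences of the collagen and laminin genes was not tested. In bulk tissue, fewer cells of a type and less RNA per cell cannot be told apart. Results are therefore given also without wild type 1 and Tbx3 cKO 3, and for single genes within the libraries of high and of low lens signal. The low lens libraries were wild type 1, Tbx3 cKO 1 and Tbx3 cKO 3, so every difference within them rests on wild type 1 alone. Leaving out wild type 1 and Tbx3 cKO 3 keeps wild types of high lens signal only, against Tbx3 cKO 1 of low and Tbx3 cKO 2 of high lens signal.

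The member that stood out was Col9a1, the alpha 1 chain of collagen IX, a fibril-associated collagen that decorates the surface of collagen II fibrils. The gene has 2 annotated starts. The upstream one gives the long protein with a globular head known from cartilage, and the downstream one a short form known from the vitreous. The RefSeq table (build GRCm38.p6) held starts for 39 of the 54 genes, and only Col9a1, Col18a1, Col6a2 and Lamb3 had 2. The 250 bases before each Col9a1 start are shown because the deposited values count the gene as a whole and do not tell these starts apart. Both lie on the plus strand of chromosome 1 and the starts are 17593 bases apart. The second window lies inside the gene, and 16 of its 250 bases are exonic by GENCODE annotation of the same build. Capitals mark the matches to a set of 5 short motifs on either strand.
Col9a1 first start, chr1:24177360-24177609: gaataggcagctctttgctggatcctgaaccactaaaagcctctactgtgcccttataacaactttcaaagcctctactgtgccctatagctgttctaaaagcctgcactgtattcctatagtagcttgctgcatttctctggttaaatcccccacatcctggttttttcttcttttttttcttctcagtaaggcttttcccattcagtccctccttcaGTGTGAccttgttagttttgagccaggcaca
Col9a1 second start, chr1:24194953-24195202: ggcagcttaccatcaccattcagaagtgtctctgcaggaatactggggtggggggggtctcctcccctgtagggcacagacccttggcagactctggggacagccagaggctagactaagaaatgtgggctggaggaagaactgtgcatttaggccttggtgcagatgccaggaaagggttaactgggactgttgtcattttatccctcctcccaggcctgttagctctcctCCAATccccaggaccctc
The first window holds GTGTGA, letters found in T-box sites, 31 bases before the start, and the second holds CCAAT 18 bases before the start. Neither window holds the GC box GGGCGG. The same is true of TATAAA, as found in TATA boxes, and of ACAAT, letters common to SOX sites. Each window thus holds 1 match, and no match overlaps another. GTGTGA or its reverse complement occurs in 12.3% of all 32817 windows of this length in the table and in 11.6% of the 43 windows of the collagen and laminin genes, and CCAAT in 33.8% and 32.6%. GGGCGG occurs in 32.7% of all windows and 53.5% of these 43, TATAAA in 12.4% and 11.6%, and ACAAT in 27.7% and 4.65%.

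Col9a1 (ENSMUSG00000026147) had normalized read counts of 4157, 7474 and 7860 in wild type. In Tbx3 cKO they were 18511, 15859 and 23475. Every cKO library lay above every wild-type library, and the lowest cKO value was far above the highest wild-type value. The log2 fold change was 1.61 (SE 0.27, 95% interval 0.98 to 2.24), a 3.04-fold difference, on the log2(value + 1) scale used for all fold changes here. The limma-trend p was 0.000523, the smallest among the 48 genes, and the p adjusted over all 18914 genes tested was 0.174. The threshold of 0.05 was thus not met with all libraries in. Without wild type 1 and Tbx3 cKO 3 the log2 fold change was 1.16 and the limma adjusted p was 0.0378. That pair was chosen after the data had been seen, and its removal raised the genes called over all tested from 12 to 43. When 1 library was left out, the limma adjusted p of Col9a1 was between 0.135 and 0.457. The difference was 1.05 within the libraries of high lens signal and 2.33 within those of low lens signal, each as a difference in log2 with too few libraries for a test. An exact two-sided permutation test gave p = 0.1, which is as low as it can go with 3 libraries a side.

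The other chains of the same molecule gave lower means in cKO, with overlap. Col9a2, the alpha 2 chain, was 924, 1334 and 1441 in wild type against 1683, 788 and 635 in cKO (log2 fold change -0.36, 95% interval -1.22 to 0.51). Col9a3, the alpha 3 chain, was low at 46.5 ± 18.1 (SD, n = 3) against 37.4 ± 8.26. To compare chains, values were divided by the length of each gene's exons. The ratio of Col9a1 to Col9a2 per kb was 3.20, 3.99 and 3.89 in wild type against 7.83, 14.3 and 26.3 in cKO, with no overlap (log2 difference 1.97, SE 0.51). The ratio of Col9a1 to Col2a1, the collagen whose fibrils it coats, was 1.72, 1.47 and 1.51 in wild type against 3.09, 3.31 and 3.80 in cKO. That is a log2 difference of 1.12 (SE 0.11), and 1.10 without wild type 1 and Tbx3 cKO 3. Exact permutation tests of these ratios gave p = 0.1, the smallest possible, and the pairs were chosen after the values had been seen.

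**Figure D1:**
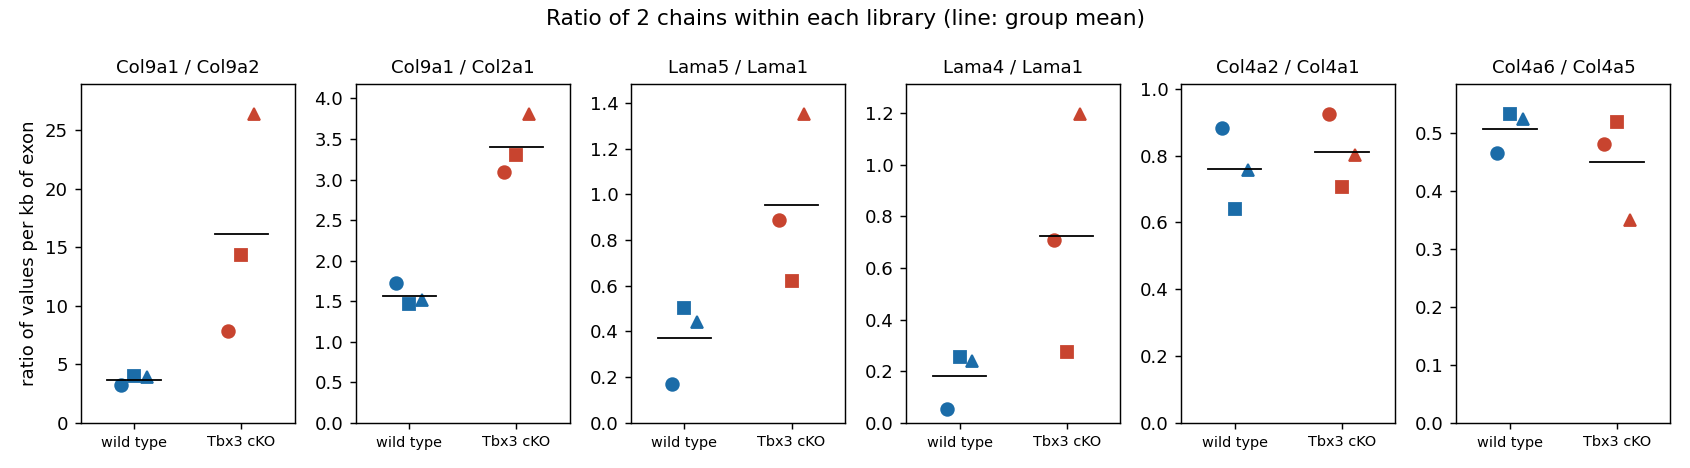
Ratio of values per kb of exon for 6 pairs of chains; each point is 1 library (circle, square and triangle are replicates 1, 2 and 3; blue wild type, red Tbx3 cKO), the line is the group mean and axes start at 0. The groups do not overlap for Col9a1 over Col9a2, Col9a1 over Col2a1, Lama5 over Lama1 and Lama4 over Lama1, and overlap for both collagen IV pairs.

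Over the whole family no gene passed the adjusted threshold. Of the 48 genes tested, 0 were called by limma-trend, against 0.0634% of all genes tested. At an unadjusted p under 0.05, 6 were higher in cKO (Col9a1, Col24a1, Col18a1, Lama5, Col20a1 and Lama4), which is 12.5% against 6.39% of all genes, and 1 was lower (Lama1), which is 2.08% against 7.16%. Without wild type 1 and Tbx3 cKO 3 these counts were 2 and 2. The groups did not overlap, with cKO higher, in 5 genes (Col9a1, Col18a1, Col24a1, Col20a1 and Col5a3), or 10.4% against 10.6% of all genes, and with cKO lower in 2 (Lama1 and Col17a1), or 4.17% against 11.7%. The share of genes whose groups were apart with cKO higher was therefore that of the background. Log2 fold changes were above 0 in 35 of 48, or 72.9% against 48% of all genes, with a median of 0.62 against -0.02. By class the median was 0.51 for basement membrane chains, 0.89 for fibrillar collagens and 0.55 for other collagens. Without wild type 1 and Tbx3 cKO 3 the medians were -0.06, 0.06 and -0.27. In genes where wild type 1 was the lowest and Tbx3 cKO 3 the highest library, this removal lowers the log2 fold change by construction.

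**Figure D2:**
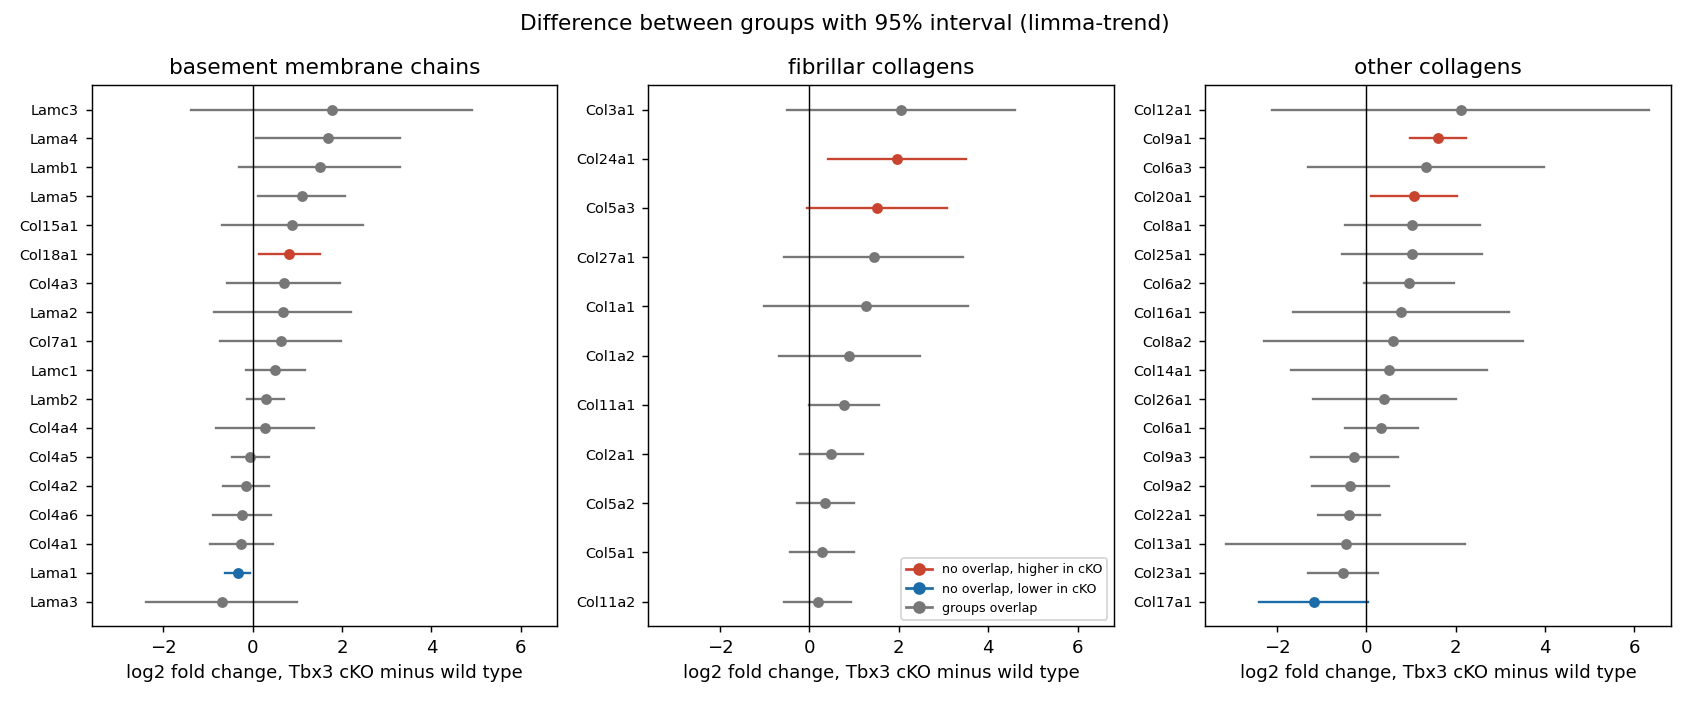
Log2 fold change (Tbx3 cKO minus wild type, limma-trend) of 47 tested genes, with 95% intervals, in panels for the 3 classes; red and blue mark genes whose 3 cKO values lie all above or all below the 3 wild-type values. All 11 fibrillar collagens lie above 0 but most of their intervals cross it, while the interval of Col9a1 runs from 0.98 to 2.24.

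Spread within a group was wide. The highest wild-type value was 2.44 times the lowest in the median gene of the family, against 1.34 times over all genes tested. This spread within wild type was larger than the fold between groups in 39 of the 48 genes, and in 12986 of all 18914 genes tested. Wild type 1 was the lowest of all 6 libraries in 29 of the 48, against 4558 of all 18914. Tbx3 cKO 3 was the highest in 26, against 4922 of all 18914. Wild type 2 was the highest wild-type library in 40, against 6351 of all 18914.

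**Figure D3:**
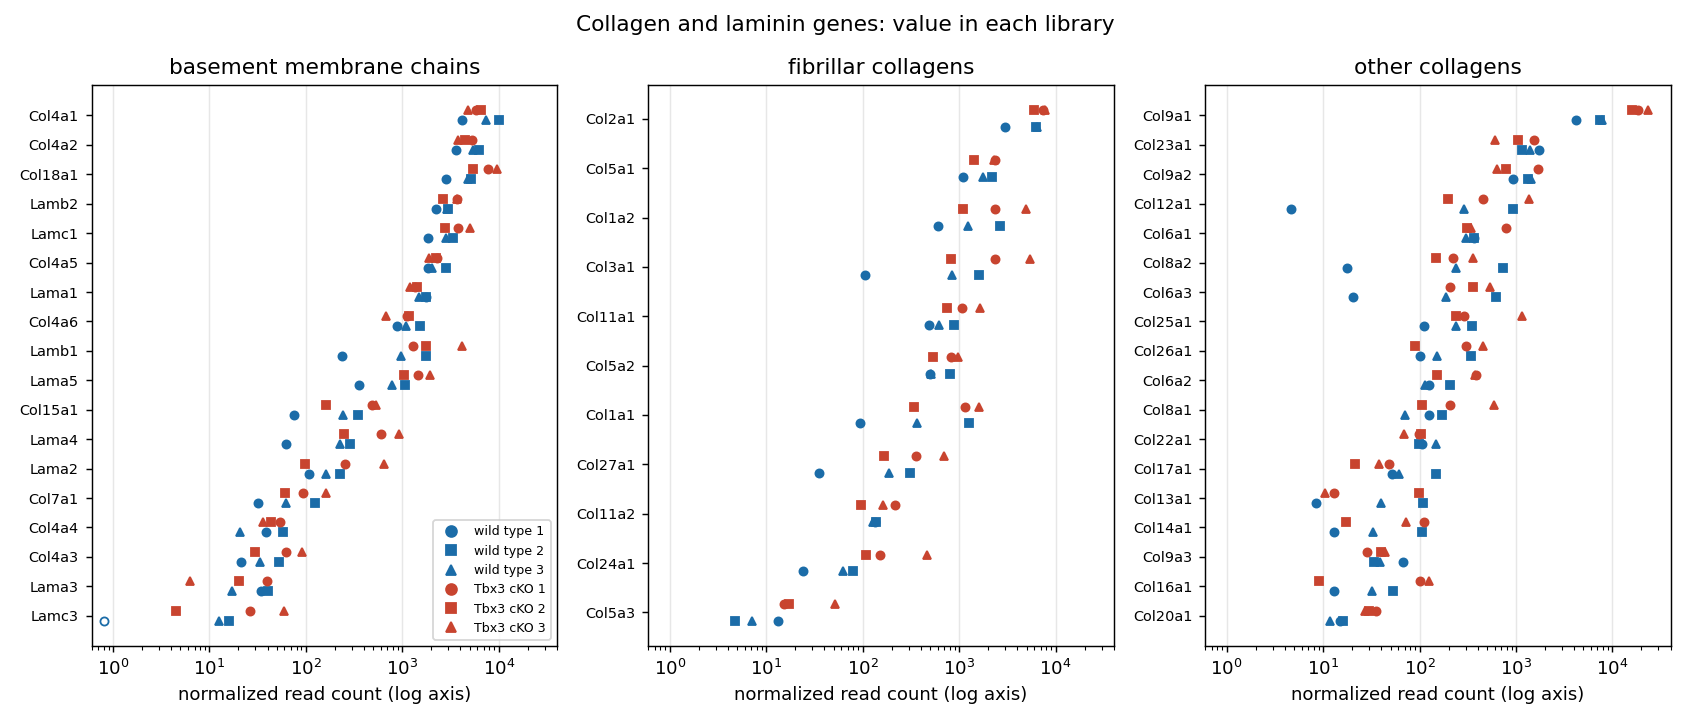
Normalized read count (log axis) of 47 tested genes in each library, with genes ordered by wild-type mean within the 3 classes; blue is wild type, red is Tbx3 cKO, circle, square and triangle are replicates 1, 2 and 3, and the open symbol at the left edge stands for a value of 0. The blue circle of wild type 1 lies far left of the others in genes such as Col3a1 and Col12a1, and the 3 red points of Col9a1 lie right of the 3 blue ones.

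Among laminins, the alpha chains differed in direction, with means of Lama1 and the scarce Lama3 lower and those of Lama2, Lama4 and Lama5 higher in cKO, though none was called. Lama1 (ENSMUSG00000032796), the alpha chain of early embryonic basement membranes and of the inner limiting membrane, was 1764, 1765 and 1498 in wild type against 1355, 1414 and 1207 in cKO. All cKO libraries lay below all wild-type libraries by a small margin (log2 fold change -0.34, SE 0.12; adjusted p by limma = 0.335). The difference kept its sign within the libraries of high (-0.20) and of low lens signal (-0.46). Lama5 (ENSMUSG00000015647), the broadly expressed alpha chain of epithelial and vessel basement membranes, was 357, 1059 and 789 in wild type against 1438, 1051 and 1948 in cKO. Only Tbx3 cKO 2 fell within the wild-type range (log2 fold change 1.10, SE 0.41; adjusted p by limma = 0.348). Lama4 (ENSMUSG00000019846), an alpha chain of vessel and mesenchymal basement membranes, was 61.6, 287 and 228 in wild type against 608, 247 and 916 in cKO (log2 fold change 1.69, SE 0.68; adjusted p by limma = 0.360). Within the libraries of high lens signal Lama4 differed by -0.05 and Lama5 by 0.20, and within those of low lens signal by 3.58 and 2.23. Without wild type 1 and Tbx3 cKO 3 the log2 fold changes of Lama4, Lama5 and Lama1 were 0.60, 0.43 and -0.23. The ratio of Lama5 to Lama1 per kb was 0.169, 0.502 and 0.441 in wild type against 0.888, 0.622 and 1.35 in cKO. That of Lama4 to Lama1 was 0.0550, 0.256 and 0.240 against 0.707, 0.275 and 1.20. Both ratios were higher in every cKO library (log2 differences 1.44, SE 0.59, and 2.04, SE 0.95; exact permutation p = 0.1 each), and both were smaller, at 0.66 and 0.83, without wild type 1 and Tbx3 cKO 3. Lama4 followed the mesenchyme marker sum at its ends, with wild type 1 lowest and Tbx3 cKO 3 highest in both. Pigment epithelium and macrophage marker sums had the same ends. So did the endothelial markers Pecam1, Cdh5, Tie1, Esam, Egfl7 and Flt1, but not Tek, Emcn, Cldn5 and Kdr. Pecam1 was 40.1, 226 and 213 in wild type against 617, 212 and 696 in cKO. What part any of these cells had in Lama4 was not tested. Lama2, an alpha chain best known from muscle, was 166 ± 60.1 against 332 ± 282, and Lama3, an alpha chain of surface epithelia, 30.7 ± 12.2 against 22.0 ± 16.6.

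The beta and gamma chains that join these alpha chains were spread over the groups. Lamb1 was 235, 1772 and 976 in wild type against 1281, 1740 and 4138 in cKO (log2 fold change 1.50, SE 0.76), with wild type 1 lowest and Tbx3 cKO 3 highest, and 0.18 without those libraries. Lamb2, the beta chain of mature basement membranes, was 2212, 3007 and 2909 against 3657, 2644 and 3685. Lamc1, the gamma chain shared by most laminins, was 1866, 3383 and 2865 against 3733, 2776 and 5065. For both, the values of the groups overlapped (log2 fold changes 0.29, SE 0.18, and 0.51, SE 0.28). The ratio of Lamb2 to Lamc1 per kb stayed within 0.985 to 1.60 over the 6 libraries, while that of Lamb1 to Lamc1 ran from 0.164 to 1.07. Lamc3, a gamma chain known from retina and brain, was scarce, at 0, 16.0 and 12.6 in wild type against 26.2, 4.55 and 58.9 in cKO, with overlap. Its value of 0 in wild type 1 allows up to 3 reads, which is 2.69 to 3.41 normalized units by library, for counting error only.

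Collagen IV, the network-forming collagen of basement membranes, showed no difference between groups beyond its spread. Col4a1 was 4205, 9963 and 7397 in wild type against 5856, 6468 and 4846 in cKO, and Col4a2 was 3618, 6208 and 5465 against 5269, 4450 and 3795. In both genes wild type 1 was lowest and wild type 2 highest of all libraries, so the wild-type values enclosed all 3 cKO values. The log2 fold changes were -0.25 (95% interval -0.96 to 0.46) and -0.15 (-0.67 to 0.36), and dropping wild type 2 turned them to 0.03 and 0.0058. These genes encode the partners of 1 trimer and lie head to head, with annotated starts 21 bases apart on opposite strands of chromosome 8. The ratio of Col4a2 to Col4a1 per kb ranged only from 0.639 to 0.923. Col4a5 and Col4a6, a second head-to-head pair with starts 1343 bases apart on the X chromosome, behaved alike. Col4a5 was 1852, 2810 and 2026 against 2271, 2237 and 1880 (log2 fold change -0.05, 95% interval -0.46 to 0.36), and Col4a6 was 877, 1520 and 1081 against 1112, 1180 and 670 (-0.24, 95% interval -0.89 to 0.42). Their ratio was between 0.351 and 0.532 in the 6 libraries. Col4a3 and Col4a4, the chains of specialised basement membranes such as that of the kidney filter, were low, at 35.8 ± 15.7 and 39.1 ± 18.8 in wild type against 60.6 ± 30.5 and 44.1 ± 8.85 in cKO.

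In Col4a1 and in Col13a1, a transmembrane collagen, all 3 libraries of high lens signal lay above all 3 of low signal. Col4a1 was 6468 to 9963 in the former and 4205 to 5856 in the latter, and Col13a1 was 39.4 to 109 and 8.40 to 13.1. These were the only such cases among 47 genes compared. The share of all genes with this split was not counted, so these 2 cases have no background beside them. The lens capsule is a thick basement membrane rich in collagen IV. Whether lens cells gave these transcripts was not tested.

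**Figure D4:**
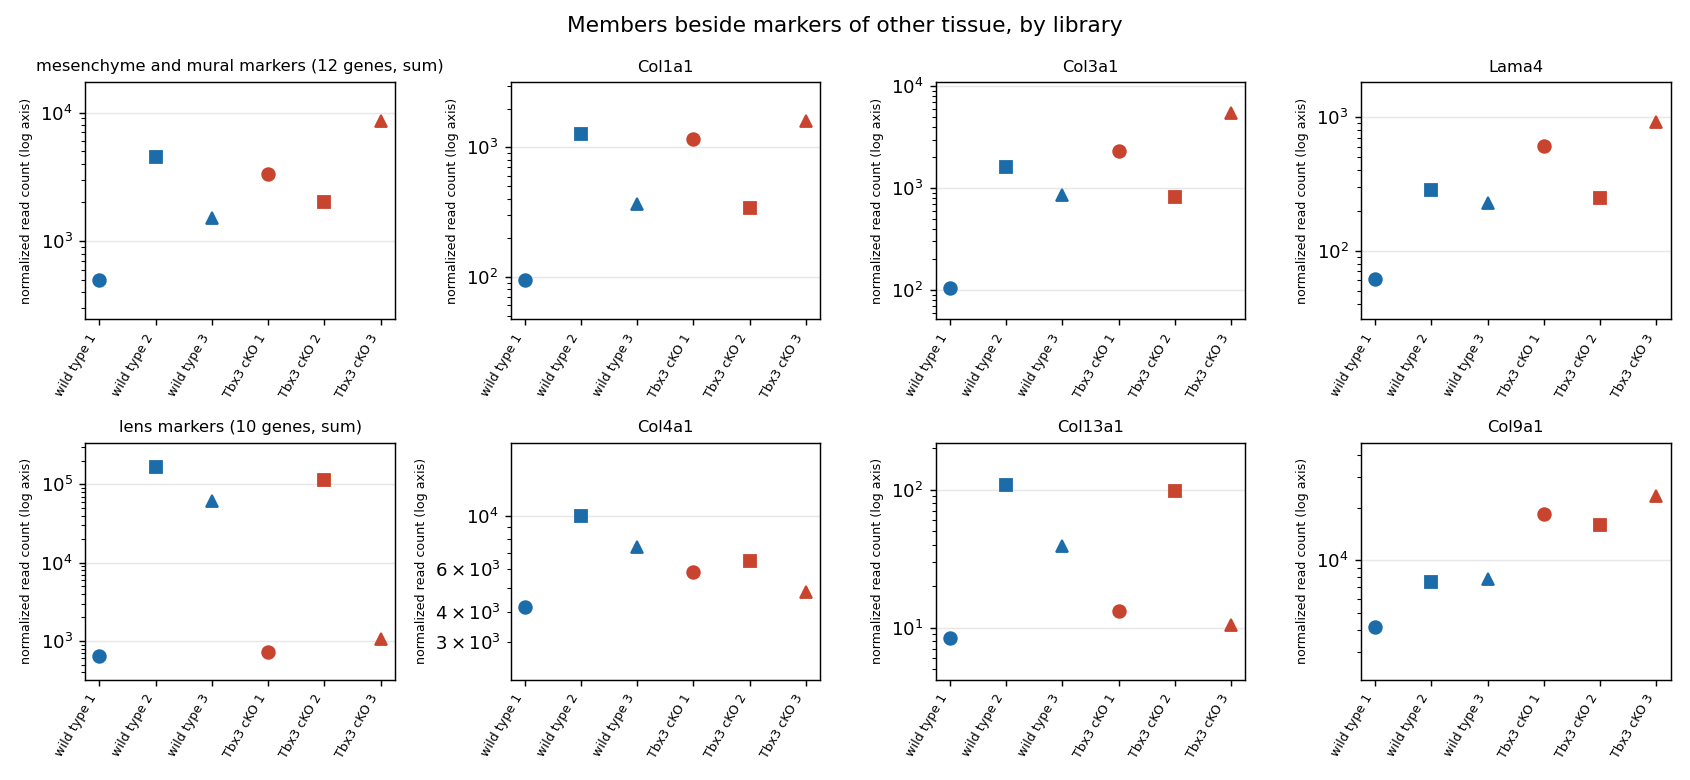
Normalized read counts (log axes) by library for the summed markers of mesenchyme and mural cells and of lens, beside 6 collagen and laminin genes; blue is wild type and red Tbx3 cKO. Col1a1, Col3a1 and Lama4 are lowest in wild type 1 and highest in Tbx3 cKO 3, as the mesenchyme sum is. The sums of pigment epithelium and macrophage markers, not drawn, have the same ends. Col4a1 and Col13a1 are high in the same 3 libraries as the lens sum, and Col9a1 is higher in all 3 cKO libraries.

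The multiplexins XV and XVIII tie basement membranes to the tissue beneath, and the end fragment of collagen XVIII is endostatin, an inhibitor of vessel growth. Col18a1 (ENSMUSG00000001435) was 2821, 5176 and 4848 in wild type against 7672, 5406 and 9497 in cKO. All cKO values lay above all wild-type values, though Tbx3 cKO 2 lay only just above wild type 2 (log2 fold change 0.83, SE 0.29; adjusted p by limma = 0.335). Within the libraries of high lens signal the difference was 0.11, within those of low lens signal 1.60, and without wild type 1 and Tbx3 cKO 3 0.36. Col15a1, a multiplexin of vessel and muscle basement membranes, was 75.6, 349 and 244 against 483, 160 and 534, with overlap, and its log2 fold change of 0.89 was -0.07 with the same libraries left out. Col7a1, the collagen of the anchoring fibrils under surface epithelia, was 72.5 ± 46.4 against 106 ± 52.1.

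All 11 fibrillar collagens had a log2 fold change above 0, from 0.18 to 2.06, yet in 9 of them wild type 1 was the lowest and in 9 Tbx3 cKO 3 was the highest of all libraries. None was called over all genes by limma, and 1 had an unadjusted p under 0.05. The chains of collagens I and III are the main fibres of mesenchyme. They were lowest in wild type 1 and highest in Tbx3 cKO 3, like the mesenchyme marker sum. The sums of pigment epithelium and macrophage markers had these same ends. Col1a1 was 94.3, 1266 and 368 in wild type against 1152, 341 and 1595 in cKO. Col1a2 was 600, 2646 and 1242 against 2362, 1095 and 4886. Col3a1 was 105, 1610 and 849 against 2339, 814 and 5454. In each of these genes Tbx3 cKO 2 lay below wild type 2 and wild type 3. In the mesenchyme marker sum it lay above wild type 3. In these genes Tbx3 cKO 1 lay near or above wild type 2. Their log2 fold changes of 1.27, 0.89 and 2.06 had SEs of 0.97, 0.67 and 1.08. Without wild type 1 and Tbx3 cKO 3 those of Col1a1, Col1a2 and Col3a1 were -0.12, -0.17 and 0.24, and 8 of the 11 fibrillar genes were above 0. Within the libraries of high lens signal, where Tbx3 cKO 2 stood against wild type 2 and wild type 3, 8 of 11 were below 0. Within those of low lens signal, where wild type 1 was the only wild type, 11 of 11 were above 0. In the 9 genes with wild type 1 lowest of all libraries, that sign could not have been otherwise. The part of mesenchymal or other cells in these differences was not tested.

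Collagen II and its fibrillar partners V and XI had log2 fold changes with SEs of 0.27 to 0.33, apart from the scarce Col5a3. Col2a1, the main fibril collagen of vitreous and cartilage, was 3007, 6332 and 6458 in wild type against 7452, 5961 and 7676 in cKO (log2 fold change 0.49, SE 0.30). Wild type 1 was the low library, and the other 5 lay close together. Of 8 cartilage markers 4 are in the table and 1 of these, Cnmd, has a library at 0. Sox9, which retinal cells also express, made up most of their sum (1155 to 2530 in wild type against 971 to 1945 in cKO). Matn3 was 8.40, 41.3 and 36.8 in wild type against 66.5, 75.1 and 118 in cKO, with no overlap. Its log2 fold change was 1.78 (adjusted p by limma = 0.341), while those of Sox9, Hapln1 and Cnmd were -0.10, -0.90 and -2.08. The part of cartilage cells was not tested. Col11a1, which joins collagen II fibrils, was 487, 880 and 622 against 1074, 741 and 1662 (log2 fold change 0.77, SE 0.33), and Col11a2 was 132 ± 5.81 against 158 ± 59.6. Col5a1 was 1086, 2213 and 1775 against 2362, 1431 and 2281, and Col5a2 was 502, 802 and 512 against 826, 540 and 975. These collagen V chains, which set the width of fibrils, overlapped between groups, and without wild type 1 the log2 fold change of Col5a1 was -0.0049. The ratio of Col5a2 to Col5a1 per kb held between 0.366 and 0.587.

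The groups did not overlap, with cKO higher, in 2 of the 11 fibrillar genes, or 18.2% against 10.6% of all genes. Both were scarce. Col24a1 (ENSMUSG00000028197), a minor fibrillar collagen, was 24.3, 79.9 and 62.8 in wild type against 150, 107 and 464 in cKO, with no overlap (log2 fold change 1.95, SE 0.66; adjusted p by limma = 0.335). It differed by 0.59 within the libraries of high lens signal and by 3.39 within those of low lens signal, and its log2 fold change was 0.83 without wild type 1 and Tbx3 cKO 3. Col5a3 was 8.32 ± 4.30 against 27.9 ± 20.5, also without overlap, at counts where single reads weigh. Col27a1, a fibrillar collagen of cartilage, was 176 ± 136 against 406 ± 267, with overlap.

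Of the other collagens, Col20a1 (ENSMUSG00000016356), a fibril-associated collagen, was 14.9, 16.0 and 11.7 in wild type against 35.3, 29.6 and 27.4 in cKO. The groups were apart and the difference was even across libraries, with 1.06 and 1.01 within the libraries of high and of low lens signal (log2 fold change 1.07, SE 0.41; adjusted p by limma = 0.351), but all values are low. Col22a1, a collagen of tissue junctions, was 106, 99.6 and 150 against 98.8, 104 and 69.5 (log2 fold change -0.38). Col12a1, Col14a1 and Col16a1, fibril-associated collagens of connective tissue, had log2 fold changes of 2.11, 0.50 and 0.78 with SEs of 1.79, 0.93 and 1.03. In Col12a1 wild type 1 had a value of 4.67 and the other wild types 930 and 286, and without wild type 1 its log2 fold change was -0.06.

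Of the transmembrane collagens 3 of 4 were below 0 and a median of -0.49. Col17a1 (ENSMUSG00000025064), a hemidesmosome collagen of surface epithelia, was 52.3, 148 and 61.9 in wild type against 48.4, 21.6 and 37.9 in cKO. All cKO values lay below all wild-type values, though Tbx3 cKO 1 and wild type 1 differed little (log2 fold change -1.18, SE 0.52; adjusted p by limma = 0.372). Col23a1 was the most abundant of them, at 1743, 1167 and 1414 against 1524, 1055 and 607, with overlap (log2 fold change -0.52, SE 0.33). Col25a1, a transmembrane collagen of neurons, was 233 ± 118 against 560 ± 516, where Tbx3 cKO 3 alone had 1155. The beaded filament collagens Col6a1, Col6a2 and Col6a3 had log2 fold changes of 0.34, 0.96 and 1.33 with SEs of 0.35, 0.43 and 1.12. Col8a1 and Col8a2, short-chain collagens of vessel and corneal sheets, and Col26a1 had 1.03, 0.61 and 0.40 with SEs of 0.64, 1.23 and 0.68.

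Set side by side per kb of exon, Col9a1 led in both groups. In wild type the highest means were 1583 per kb for Col9a1, 1087 for Col4a1, 1032 for Col2a1, 790 for Col4a2 and 630 for Col18a1, against 481 for Lamb2 and 355 for Lamc1. In cKO they were 4697 for Col9a1, 1377 for Col2a1, 1108 for Col18a1 and 865 for Col4a1. Among laminin alpha chains Lama1 led in wild type with 176 per kb against 64.5 for Lama5, while in cKO they had 139 and 130, which did not differ beyond their spread (ratios of 0.622 to 1.35).

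Other genes of the same matrix were taken as lists by role. Of 16 partners in the basement membrane 1 was called over all genes tested, Smoc1, a secreted BMP modulator of basement membranes, with 1236 ± 357 in wild type against 13398 ± 4295 in cKO (log2 fold change 3.43, limma adjusted p = 0.0180). Its adjusted p was 0.0375 without Tbx3 cKO 3 and between 0.0636 and 0.115 when another single library was dropped. Smoc1 was also not called in the fit with no trend or in that with a term for lens level. Nid2, which links laminin to collagen IV, was 118, 638 and 471 against 1339, 934 and 2940 (log2 fold change 2.23, SE 0.68; adjusted p by limma = 0.324), and 1.03 without wild type 1 and Tbx3 cKO 3. Its paralog Nid1 was 226, 3808 and 1824 against 907, 2694 and 2246, with overlap. Fras1, a matrix protein of epithelial basement membranes, was 1296 ± 425 against 3692 ± 2638 without overlap. At an unadjusted p under 0.05 stood 3 partners higher and 2 lower, which is 18.8% and 12.5% of the list against 6.39% and 7.16% of all genes tested.

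Of 20 receptors and the enzymes that glycosylate them, 19 were tested and 0 called by limma, with 2 higher and 1 lower at an unadjusted p under 0.05 (10.5% and 5.26%, near the 6.39% and 7.16% of all genes tested). Itga6, an alpha subunit of laminin receptors, was 3065, 2973 and 2625 in wild type against 1732, 2020 and 2400 in cKO, all lower (log2 fold change -0.50, SE 0.14; adjusted p by limma = 0.318). Itga3, another laminin receptor subunit, was 256, 501 and 375 against 675, 586 and 934, all higher (0.98, SE 0.28; adjusted p by limma = 0.320). Itga10, a subunit of a collagen receptor, was 53.5 ± 10.4 against 94.8 ± 19.7. Of 30 genes of collagen folding and crosslinking, 28 were tested and 0 called by limma, with 4 higher and 0 lower at an unadjusted p under 0.05 (14.3% and 0% against 6.39% and 7.16% of all genes tested). Log2 fold changes were above 0 in 22 of 28, or 78.6% against 48% of all genes. The lysyl hydroxylases Plod3 and Plod1 were 848 ± 12.6 against 1069 ± 34.8 and 438 ± 82.4 against 807 ± 246, and the prolyl hydroxylase family gene P3h3 was 786 ± 137 against 1283 ± 360. For Plod3 every cKO value exceeded every wild-type value with little spread, and the difference was 0.28 and 0.36 within the libraries of high and low lens signal (limma adjusted p = 0.320). Serpinh1, the collagen chaperone of the endoplasmic reticulum, was 12333 ± 2438 against 14477 ± 799. Of 17 proteases and inhibitors 14 were tested and 0 called by limma, with 0 at an unadjusted p under 0.05. Those of smallest p were Timp3, an inhibitor of matrix proteases, with 304 ± 182 against 687 ± 378, and the membrane proteases Mmp24 and Fap. Mmp24 was 848, 97.8 and 208 against 107 and 57.8, with Tbx3 cKO 3 listed at practically 0, and Fap was 35.8 ± 35.8 against 160 ± 141.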

How the data were processed

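RNA of embryonic mouse retina was sequenced in 3 wild-type and 3 Tbx3 cKO libraries, polyadenylated and strand-specific per the labels' protocols. The authors used STAR 2.7.8a, cutadapt 4.2 and Partek with build GRCm39 (mm39), per the submitters' processing notes. Their roles, the counter, the annotation, scaling and any use of strand: not given in the sources used here. What the authors deposited is a signal, normalized read counts per gene that are not whole; depth was estimated from the step between low values. Genes with at least 10 in at least 3 libraries (18914 of 26147) were tested as log2(value + 1) with limma-trend (limma 3.58.1, R 4.3.3), two-sided, Benjamini-Hochberg adjusted over all genes tested, threshold 0.05. The pseudocount of 1 understates changes of low genes. Values are mean ± SD. Exon lengths came from GENCODE vM21 and promoter windows from RefSeq, both GRCm38, which is not the authors' build; no other coordinates are given. Lengths were found for all 54 genes. The steps were tested on simulated data. Members, classes and lists were chosen with earlier results of these data known. Values in every library are given for 20 main chains and the 5 genes per direction of smallest p, and the 3 of smallest p were named from each partner list; Nid1 and Serpinh1 were added after their values were seen. Alternatives covered pseudocount, filter, scaling, replicate block, trend, weights and leaving out libraries. Chain ratios, the lens levels and leaving out wild type 1 with Tbx3 cKO 3 were chosen after seeing the data. The values of 1 tested gene are not reported here, though it is included in the counts over the family and its classes.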

Additional observations from a re-analysis of the deposited data

How the results depend on the processing

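Of 47 tested genes, 23 kept the sign of their log2 fold change under every setting that tested them and 24 did not. None of the latter was called. There were 19 settings, and the filter of 50 in 3 libraries left out some scarce genes, such as Col20a1 and Col5a3 (18 settings each). Col9a1 was called in the fit without wild type 1 and Tbx3 cKO 3 (1.16, limma adjusted p = 0.0378). Apart from this, no gene of the family was called under any setting. The replicate numbers did not pair the samples: deviations from group means correlated at 0.33, 0.018 and 0.042 for numbers 1, 2 and 3, and Tbx3 cKO 2 and 3 correlated best with other numbers. With the replicate block, 0 genes of the family and 13 of all genes were called (Col9a1 adjusted p = 0.105). Genes called over all tested were 12, and 2 with no trend, 55 with library weights, 29 at a threshold of 0.1, 2 with a lens term, 43 without wild type 1 and Tbx3 cKO 3 (1 in the family) and 1 to 10 leaving out 1 library. The lens term and the removal of both libraries were added after seeing the data. Family genes at an unadjusted p under 0.05 were 6 higher and 1 lower. They were 10 and 0 with library weights, 2 and 2 with both libraries left out and 2 to 12 and 0 to 3 leaving out 1 library, and 0 were lower with no trend. Medians leaving out 1 library ran from 0.25 to 0.73 for basement membrane chains, 0.36 to 1.44 for fibrillar and 0.01 to 1.19 for other collagens, and the last was -0.27 with both left out. With both left out the sign also turned for Col7a1 (-0.22), Lama2 (-0.28), Lama3 (0.11), Lamc3 (-0.30), Col15a1 (-0.067), Col1a1 (-0.12), Col1a2 (-0.17), Col5a1 (-0.11), Col6a3 (-0.33), Col12a1 (-0.79), Col14a1 (-0.44), Col16a1 (-0.41), Col26a1 (-0.48), Col8a2 (-1.23) and Col25a1 (-0.14). With library weights it turned for Col4a5 (0.048), Lama3 (0.16) and Col8a2 (-0.21), with the lens term for Col4a5 (0.032) and Col13a1 (0.50) and with quantile normalization for Col4a5 (0.044). Leaving out 1 library, ranges crossing 0 were Col4a1 (-0.59 to 0.027), Col4a2 (-0.38 to 0.0058), Col4a4 (-0.11 to 0.61), Col4a5 (-0.17 to 0.13), Col4a6 (-0.42 to 0.020), Lama2 (-0.0024 to 1.34), Col5a1 (-0.0049 to 0.52), Col11a2 (-0.079 to 0.50), Col6a1 (-0.081 to 0.58), Col12a1 (-0.060 to 3.62), Col14a1 (-0.21 to 1.27), Col9a3 (-0.46 to 0.025), Col26a1 (-0.088 to 1.09), Col8a2 (-0.89 to 1.76) and Col13a1 (-1.44 to 0.37). The cause of these turns was not tested. No scaling moved the median of all genes by over 0.1. Low counts limit the genes with means under 30.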
